A study of Homo sapiens with 6 samples.

Results

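Heparan sulfate is a sulfated sugar chain carried by proteoglycans of the cell surface and the extracellular matrix. Heparanase (HPSE) cuts the chain inside its length, and the fragments are finished in the lysosome by exo-acting enzymes that take off 1 sulfate or 1 sugar at a time from the end. Inherited loss of most of these lysosomal enzymes causes mucopolysaccharidoses, in which partly degraded chains accumulate. The genes described here are HPSE, its homologue HPSE2, and 7 genes of lysosomal enzymes, IDS, IDUA, SGSH, NAGLU, HGSNAT, GUSB and ARSG. They were chosen by function, and their rows were found through the Ensembl identifier of each symbol. Of the 9 genes, 5 had a row of their own among the 59192 features of the table (HPSE, HPSE2, SGSH, HGSNAT and GUSB). IDS, IDUA, NAGLU and ARSG had none, and no value is given for them as single genes. The table also holds 33265 assembler loci whose genes it does not name. A missing row therefore does not show that a gene was silent.

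The RNA came from SW480 cells, an established human colorectal adenocarcinoma line, in 3 libraries labelled SW480-45 (HPSE knockdown) and 3 labelled SW480-NC (control). Both lines carry Cas9 and an EGFP-marked guide vector, directed at HPSE in SW480-45, with a control vector in SW480-NC. The study describes the sequenced knockdown line as SW480-KD1, and SW480-45 was taken to be this line. Each library is described as an independent experiment, and whether the selected cells were a pool or a single clone is not given in the sources used here. The comparison asks whether the transcripts of the other heparan sulfate degrading enzymes differed where heparanase was targeted.

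The KD1 guide was aimed at the fourth exon of HPSE, whose sequence is shown because every comparison of these libraries starts from it. In transcript HPSE-202, which has 13 exons, exon 4 spans chr4:83319344-83319469 on the minus strand of GRCh38 and is coding sequence. Read along the transcript it has 126 bases. The capitals mark the 20 bases at which the guide is directed, chr4:83319404-83319423, and the AGG motif that Cas9 requires next to them. It is the last of 6 NGG motifs on this strand that have 20 bases of the exon before them.
HPSE exon 4: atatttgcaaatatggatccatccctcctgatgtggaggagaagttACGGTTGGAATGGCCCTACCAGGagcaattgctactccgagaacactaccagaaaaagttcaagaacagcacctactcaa

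Promoter windows, from 250 bases before to 50 bases after the annotated start (RefSeq, GRCh38.p14), were found for 6 of the 9 genes. They are shown for HPSE, whose level stood apart between the lines, for its almost silent homologue HPSE2, and for GUSB, the most abundant of the genes measured. Capitals mark matches on either strand to CACGTG, the core of the element that TFEB-family factors recognize at lysosomal genes, to the GC box GGGCGG and to TATAAA. HPSE is at chr4:83335104-83335403, HPSE2 at chr10:99235826-99236125 and GUSB at chr7:65982164-65982463, all on the minus strand.
HPSE promoter: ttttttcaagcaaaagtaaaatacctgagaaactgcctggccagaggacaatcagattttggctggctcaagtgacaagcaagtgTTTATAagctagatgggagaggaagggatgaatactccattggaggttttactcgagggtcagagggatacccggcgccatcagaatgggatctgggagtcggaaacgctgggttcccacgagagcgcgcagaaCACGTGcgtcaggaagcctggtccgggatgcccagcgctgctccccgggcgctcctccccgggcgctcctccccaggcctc
HPSE2 promoter: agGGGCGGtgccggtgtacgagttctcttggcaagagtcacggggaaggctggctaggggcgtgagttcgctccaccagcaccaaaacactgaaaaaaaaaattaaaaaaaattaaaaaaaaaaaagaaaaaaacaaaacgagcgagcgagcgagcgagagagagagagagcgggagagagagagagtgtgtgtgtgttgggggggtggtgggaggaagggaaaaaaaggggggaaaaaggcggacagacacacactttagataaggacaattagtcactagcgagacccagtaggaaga
GUSB promoter: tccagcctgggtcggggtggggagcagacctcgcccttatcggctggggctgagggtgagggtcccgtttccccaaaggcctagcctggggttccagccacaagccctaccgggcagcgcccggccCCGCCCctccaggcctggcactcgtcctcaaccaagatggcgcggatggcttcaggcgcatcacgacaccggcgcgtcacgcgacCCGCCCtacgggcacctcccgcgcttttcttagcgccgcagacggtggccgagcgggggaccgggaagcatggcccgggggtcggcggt

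The HPSE window held 1 match to CACGTG and 1 to TATAAA, and no match to GGGCGG. Of the 6 windows searched (HPSE, HPSE2, IDS, IDUA, GUSB and ARSG), the one of HPSE alone had CACGTG, which occurs in 7.43% of all 27305 promoter windows. It was also the only one of the 6 with TATAAA, found in 11.95% of all windows. GGGCGG was in 4 of the 6, against 44.6% of all windows. The GUSB window had 31 CpG dinucleotides, the HPSE window 16 and the HPSE2 window 14, where the median of all windows is 14. A match describes these letters only.

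Every deposited value was a whole number of reads times 1 library-specific factor, and the 6 libraries held 33221323 to 39802365 reads. The epithelial genes EPCAM, KRT8, KRT19, KRT20, CDX2 and VIL1 were present, as the label of the line calls for, although CDX2 was low at 19.0 to 40.3 normalized counts. The 6 genes with a row, of 8 listed, summed to 111278 to 119777 normalized counts in SW480-45 and 128944 to 136556 in SW480-NC, most of it KRT8. KRT20, a keratin of differentiated colonocytes, fell in SW480-45, with a log2 fold change of −0.81 (SE 0.07, adjusted p = 0.00719 from limma, 0.0610 with the replicate number as a block and 0.0859 without an intensity trend). VIL1, an actin-binding protein of microvilli, differed the other way, with 8854 to 9508 normalized counts in SW480-45 and 7576 to 8524 in SW480-NC, and did not pass the adjusted test (log2 fold change 0.20, SE 0.07, adjusted p = 0.225 from limma). Fibroblast genes summed to 230 to 360 normalized counts in SW480-45 and 198 to 253 in SW480-NC, nearly all of it COL1A1, while COL1A2 and LUM had 0 to 3.77. The endothelial genes summed to 28.0 to 43.2 in SW480-45 and 12.6 to 26.5 in SW480-NC, with CDH5 at 0 in 5 of 6 libraries, and CD14, the 1 leukocyte gene of 3 with a row, was at 28.97 to 46.7. The part of these differences in the results below was not tested.

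HPSE (ENSG00000173083) lies on chr4:83292461-83335153, minus strand (GRCh38, GENCODE 29), and no annotated gene overlaps it. It had 136, 172 and 146 normalized counts in SW480-45 and 269.9, 295 and 246 in SW480-NC. The highest SW480-45 library was below the lowest SW480-NC library, so the groups did not overlap. These values rested on 129, 191 and 155 reads in SW480-45 and on 258, 305 and 232 in SW480-NC. On the log2(normalized count + 1) scale the difference was −0.83 (SE 0.14), which leaves 56.1% of the control level with a 95% confidence interval of 44.6% to 70.7%. Its adjusted p was 0.0547 from limma over 21703 features, just outside the threshold of 0.05 (2.02% of all features were under 0.1), and its unadjusted p of 0.000471 ranked 187th. An exact permutation test (two-sided) gave p = 0.1, the smallest that 3 libraries against 3 allow. In bulk RNA, fewer cells with the transcript and less transcript per cell cannot be told apart. The counts cover the whole gene, so they do not show whether the remaining transcripts carried an edit at the guide's site.

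**Figure D1:**
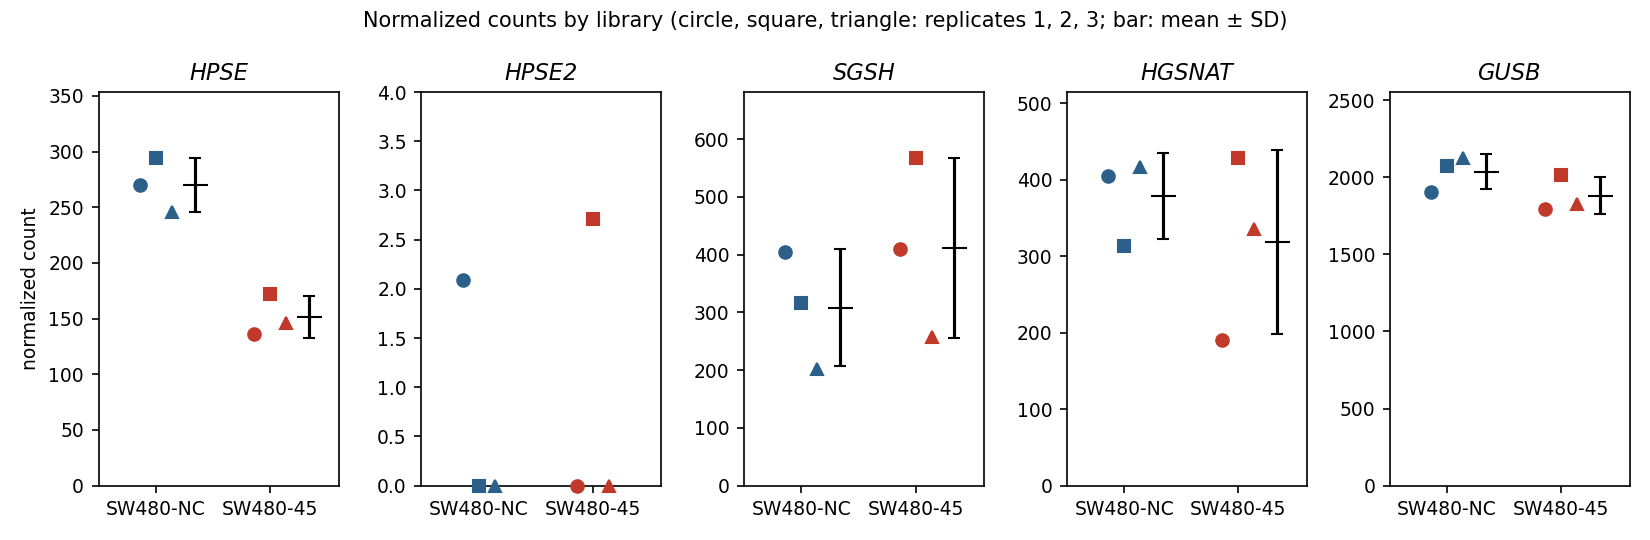
Normalized counts (vertical axis, each starting at 0) of the 5 measured genes in the 3 SW480-NC (blue) and 3 SW480-45 (red) libraries, with circles, squares and triangles for replicates 1, 2 and 3 and black bars for the mean ± SD (not drawn for HPSE2). Only in HPSE are the red points all below the blue ones; SGSH and HGSNAT scatter widely within a line.

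Whether HPSE passes the adjusted threshold depended on the setting, while its size hardly did. Over 16 alternative fits its log2 fold change stayed between −0.93 and −0.76. It passed in 4 of them, with an adjusted p of 0.0451 in limma over all features with any value, 0.0460 when the minimum mean was raised to 50, 0.0462 over Ensembl features only and 0.000948 in DESeq2 on the recovered reads. It missed in the other 12, which include edgeR on the recovered reads (adjusted p = 0.0664) and each fit without 1 library (adjusted p = 0.0777 to 0.199 from limma).

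**Figure D2:**
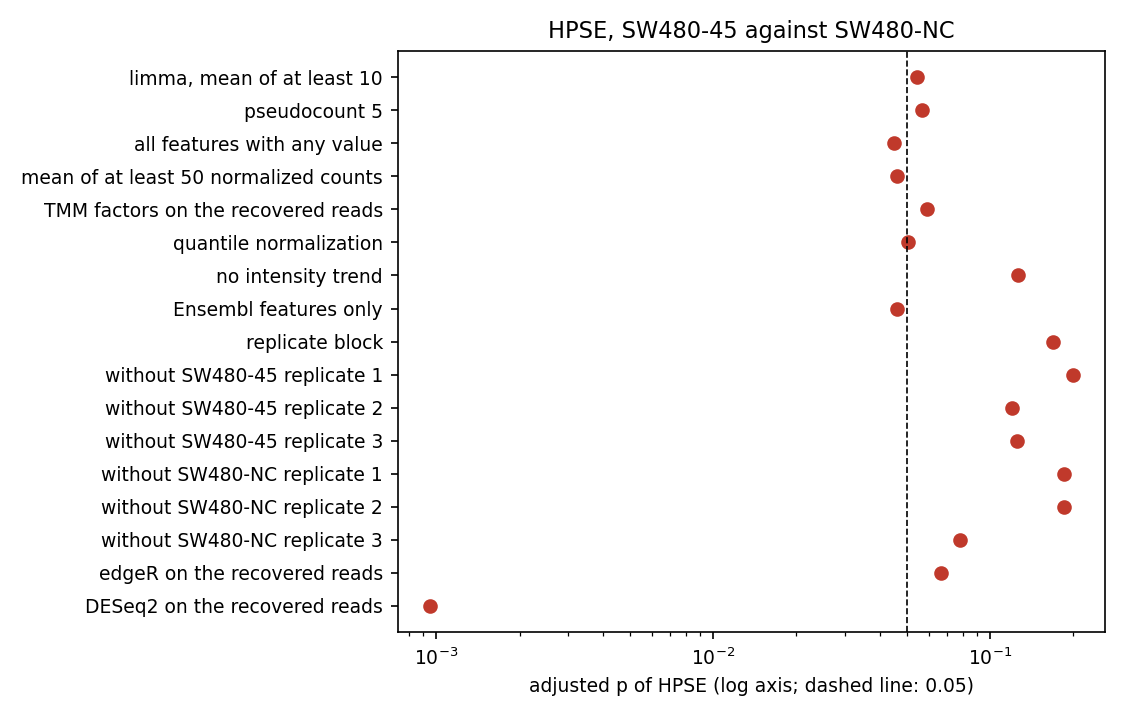
Adjusted p of HPSE (horizontal log axis) in limma with a minimum mean of 10 normalized counts and in 16 alternative fits, 1 per row. Apart from DESeq2 at 0.000948, the points lie between 0.0451 and 0.199, with 3 of them to the left of the dashed line at 0.05.

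A measure that does not use the library size was the number of HPSE reads per 100 reads of GUSB, chosen after the values had been seen. It was 7.57, 8.56 and 7.998 in SW480-45 and 14.2, 14.2 and 11.6 in SW480-NC. The groups again did not overlap, and the mean of 8.04 ± 0.495 (SD, n = 3) in SW480-45 was 60.4% of the 13.3 ± 1.51 (SD, n = 3) in SW480-NC. The two-sided exact permutation test gave p = 0.1, the smallest possible here.

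HPSE2, the homologue on chr10:98457077-99235862 (minus strand), encodes a protein that binds heparan sulfate without cutting it and can inhibit heparanase. It was almost unread in either line. It had 3 reads in SW480-45 replicate 2, 2 in SW480-NC replicate 1 and 0 in the other 4 libraries. A count of 0 allows up to 3 reads, which correspond to 2.71 to 3.18 normalized counts depending on the library. All 6 libraries were at or under this floor, so no fold change is given, and HPSE2 did not enter the test.

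GUSB, β-glucuronidase, removes glucuronic acid from the end of the chain and is often used as a reference gene in quantitative PCR. It lies on chr7:65960684-65982314, minus strand. Its values were 1797, 2016 and 1826 normalized counts in SW480-45 and 1906, 2075 and 2127 in SW480-NC. The groups overlapped, since SW480-45 replicate 2 was above SW480-NC replicate 1. The log2 fold change was −0.12 (SE 0.08, 95% confidence interval −0.31 to 0.08, adjusted p = 0.538 from limma), so that a level below 80.6% or above 106% of the control lies outside the interval. GENCODE lists 12 GUSB pseudogenes, of which 2 had a row. GUSBP1 had a mean of 547 ± 37.7 (SD, n = 3) normalized counts in SW480-45 and 567 ± 2.55 (SD, n = 3) in SW480-NC, and GUSBP5 had 14.1 to 26.4 and 6.28 to 16.4. How reads shared by such copies were assigned is not given in the sources used here.

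SGSH, sulfamidase, removes the sulfate from the nitrogen of glucosamine. It lies on chr17:80206716-80220923, minus strand. It had 410, 568 and 257 normalized counts in SW480-45 and 405, 317 and 203 in SW480-NC. The groups overlapped, and the highest library had 2.80 times the value of the lowest. The log2 fold change was 0.40 (SE 0.33, 95% confidence interval −0.38 to 1.18, adjusted p = 0.596 from limma), and without 1 library at a time it ran from 0.13 to 0.70. SGSH overlaps CARD14 and SLC26A11, both on the opposite strand, and whether reads were counted by strand is not given. SLC26A11, a sulfate transporter, had 259, 183 and 276 normalized counts in SW480-45 and 185, 167 and 227 in SW480-NC, with a log2 fold change of 0.30 (SE 0.20, adjusted p = 0.490 from limma).

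HGSNAT, the membrane enzyme that acetylates the glucosamine freed by SGSH so that NAGLU can remove it, lies on chr8:43140455-43202855, plus strand. Its normalized counts were 191, 429 and 335 in SW480-45 and 405, 314 and 417 in SW480-NC. A single library, SW480-45 replicate 1, was well below the other 5. The log2 fold change was −0.31 (SE 0.28, 95% confidence interval −0.97 to 0.35, adjusted p = 0.625 from limma). Without that library it was 0.014 (adjusted p = 0.981 from limma), so the sign of the estimate rested on it.

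The 4 genes that were tested differed in how well replicates matched. SGSH varied by 37.7% (coefficient of variation, n = 3) in SW480-45 and 32.9% in SW480-NC, although counting error at its depth is 5.23%. HGSNAT varied by 37.7% and 14.9%, with a counting error of 5.32%. For HPSE the figures were 12.4% and 8.99% against 6.87%, and for GUSB 6.33% and 5.68% against 2.25%. For all 4 genes the spread between libraries was above counting error in both lines. The residual SD on the log2 scale was 0.54 for SGSH, larger than in 81.4% of the features tested, and 0.45 for HGSNAT, larger than in 75.1%. It was 0.15 for HPSE and 0.09 for GUSB, below the median of 0.23 over all features. The intervals for SGSH and HGSNAT were correspondingly wide, and each reaches as far from 0, in 1 direction, as the estimate for HPSE.

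**Figure D3:**
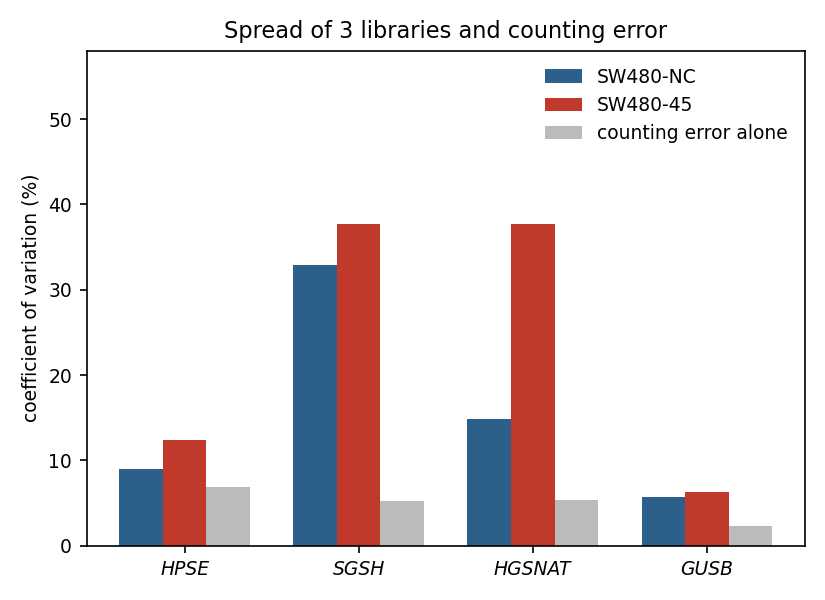
Coefficient of variation in percent (vertical axis from 0) of the normalized counts of 4 genes over the 3 libraries of SW480-NC (blue) and of SW480-45 (red), beside the counting error expected from the mean number of reads (grey). SGSH at 32.9% and 37.7% and HGSNAT in SW480-45 at 37.7% stand far above their counting error, and GUSB varies least.

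Among these genes, 0 of 4 passed an adjusted p of 0.05 in limma, where 0.802% of all features did. At an unadjusted p under 0.05 it was 1 of 4, HPSE, beside 16.2% of all features. The adjusted count was 0 of 4 in edgeR (0.627% of all features) and 1 of 4, again HPSE, in DESeq2 (4.55% of the 16618 features to which it gave an adjusted p). The libraries of the lines did not overlap in 1 of the 4, HPSE, as in 23.4% of all features. The median log2 fold change of the 4 was −0.22, with 1 higher and 3 lower, where the median of all features was −0.00482.

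Levels of different genes were compared only as normalized counts per kilobase of annotated exon, all exons of a gene joined. In SW480-NC the order of the mean levels per kilobase was GUSB at 510.0 ± 28.99, HPSE at 57.2 ± 5.14, SGSH at 45.9 ± 15.1, HGSNAT at 42.3 ± 6.29 and HPSE2 at 0.158 ± 0.273 (SD, n = 3 each). GUSB stood clear of the rest, HPSE was above HGSNAT in each library but overlapped SGSH, and SGSH and HGSNAT overlapped. In SW480-45 the order was GUSB at 471 ± 29.8, SGSH at 61.3 ± 23.2, HGSNAT at 35.6 ± 13.4, HPSE at 32.1 ± 3.99 and HPSE2 at 0.204 ± 0.354 (SD, n = 3 each). HPSE was thus the second in SW480-NC and below SGSH and HGSNAT in SW480-45, where its libraries overlapped those of HGSNAT. Per kilobase, HPSE was at 11.2% of GUSB in SW480-NC and at 6.82% in SW480-45. Annotated exons that these cells do not use would lower such levels.

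**Figure D4:**
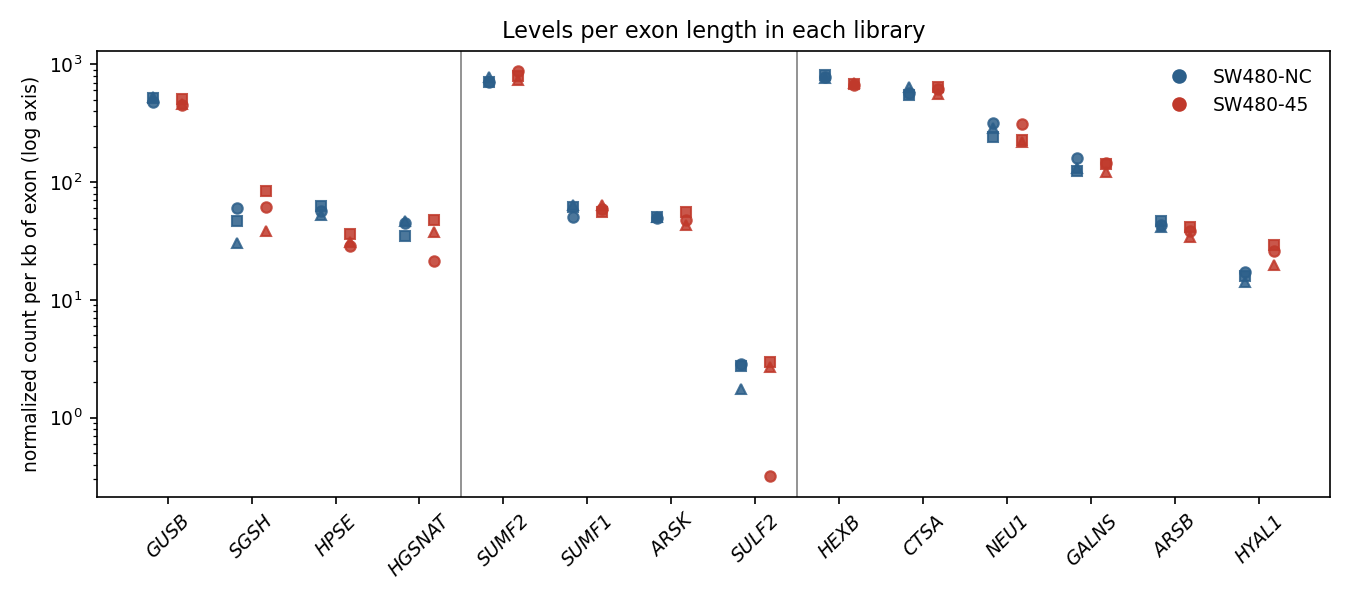
Normalized count per kilobase of exon (vertical log axis) in each of the 6 libraries for 4 of the measured genes (left). The middle panel shows sulfatases of heparan sulfate and their activators. The right panel shows genes of the list for other glycosaminoglycans, CTSA and NEU1 among them. SW480-NC is in blue and SW480-45 in red, with the marker shapes of replicates 1 (circle), 2 (square) and 3 (triangle). HPSE is the only gene of the left panel in which the colours separate; HPSE2, at or near 0, is not drawn.

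ARSG, the sulfatase that acts on the 3-O-sulfate of glucosamine, is on chr17:68259182-68422731, plus strand. It was named by the study as part of a locus that the transcript assembler had joined with PRKAR1A and another gene. PRKAR1A encodes a regulatory subunit of protein kinase A. The merged locus had 4709, 4577 and 3434 normalized counts in SW480-45 and 2272, 2005 and 2041 in SW480-NC. The groups did not overlap, as in 23.4% of all features. The log2 fold change was 1.00 (SE 0.13, 95% confidence interval 0.70 to 1.30, adjusted p = 0.0281 from limma). PRKAR1A had no row of its own either, so the share of ARSG in these reads cannot be told, and the rise of the locus is no measurement of ARSG. The locus was listed by the study for its difference between the same libraries. Its direction, its lack of overlap and its adjusted p are therefore not independent evidence. The call was lost in 5 of the 6 fits without 1 library (adjusted p up to 0.105 from limma) and held only without SW480-45 replicate 3 (adjusted p = 0.0111).

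The wider pathway was read from 5 lists of 38 genes chosen by function, of which 33 had a row and 32 were tested. In limma 0 of 32 rose (0.332% of all features) and 1 of 32 fell (0.47% of all features) at an adjusted p under 0.05, and 5 of 32 had an unadjusted p under 0.05, beside 16.2% of all features. The sulfatases of heparan sulfate and the enzymes that activate sulfatases had 0 of 4 called by limma and edgeR, 0 of the 3 to which DESeq2 gave an adjusted p (not SULF2) and 0 of 4 at an unadjusted p under 0.05, with a median log2 fold change of −0.0089. ARSK, the lysosomal sulfatase of glucuronic acid, was singled out here after its values had been seen. It had 205, 240.2 and 187 normalized counts in SW480-45 and 213, 218 and 218 in SW480-NC, with a log2 fold change of −0.05 (SE 0.13, 95% confidence interval −0.36 to 0.26), and its groups overlapped. The largest rise was 0.13 for SUMF2, a relative of the sulfatase-activating enzyme SUMF1. The largest fall was −0.66 (SE 0.75) for SULF2, which removes 6-O-sulfates outside the cell. A single library made up much of it, with 2.11 normalized counts in SW480-45 replicate 1 beside 11.7 to 19.9 in the others. The log2 fold change of SULF2 was −0.27 in edgeR and −0.28 in DESeq2.

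The list for other glycosaminoglycans had 1 of 8 genes called by limma (0.802% of all features), with a median log2 fold change of −0.16. Beside enzymes that act on the chains it includes CTSA, a carboxypeptidase, and NEU1, a sialidase. The 1 called was CEMIP2, a hyaluronidase of the cell surface rather than of the lysosome. It had 7635, 8231 and 7665 normalized counts in SW480-45 and 10633, 10193 and 10620 in SW480-NC. The groups did not overlap, and CEMIP2 fell by 0.42 on the log2 scale (SE 0.06, adjusted p = 0.0353 from limma, 0.0433 from edgeR and 0.000670 from DESeq2). The call was lost without any 1 of the 6 libraries (adjusted p = 0.0646 to 0.157 from limma) and with the replicate number as a block (0.185). The largest positive difference was that of HYAL1, the lysosomal hyaluronidase, at 62.2 to 91.2 normalized counts in SW480-45 and 44.5 to 54.4 in SW480-NC, and its log2 fold change was 0.63 (SE 0.21, adjusted p = 0.214 from limma). Its groups did not overlap, as in 23.4% of all features, and it did not pass the adjusted threshold.

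Genes for the processing and uptake of heparanase had 0 of 8 called by limma (0.802% of all features) and by edgeR (0.627%). At an unadjusted p under 0.05 it was 2 of 8, beside 16.2% of all features. DESeq2 called 1 of 8, PDCD6IP, beside 4.55% of the 16618 features with an adjusted p. PDCD6IP (ALIX), singled out after its values had been seen, is a partner of syntenin in vesicle formation, and its log2 fold change was −0.43 (SE 0.11, adjusted p = 0.136 from limma and 0.0468 from DESeq2). LRP1, a receptor that takes up secreted heparanase, had the largest positive log2 fold change, 0.23 (SE 0.07, adjusted p = 0.204 from limma). M6PR, a mannose 6-phosphate receptor that sorts lysosomal enzymes, had the most negative one, −0.52 (SE 0.23, adjusted p = 0.327 from limma). A single library made up much of that value, with 4186 normalized counts in SW480-NC replicate 1 beside 1690 to 2316 in the other 5. In this list the libraries of the lines did not overlap for CTSL, LRP1, PDCD6IP and M6PR. They overlapped for SDC1, SDC4, SDCBP and IGF2R. Over all features, 23.4% did not overlap.

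Genes of lysosomal enzyme targeting had 0 of 9 called by limma (0.802% of all features) or edgeR (0.627%). DESeq2 also called 0 of 9 (4.55% of the 16618 features with an adjusted p). At an unadjusted p under 0.05 it was 0 of 9, beside 16.2% of all features. The median log2 fold change of these genes was −0.01. The values ran from −0.18 (SE 0.31) for NAGPA, the enzyme that uncovers the mannose 6-phosphate tag, to 0.22 (SE 0.16) for GGA3, a sorting adaptor. The MiT/TFE transcription factors, which bind CACGTG elements of lysosomal genes, had 0 of 3 called by the same tools. At an unadjusted p under 0.05 it was 0 of 3, beside the same shares of all features. All 3 had positive values, from 0.11 for TFE3 to 0.30 (SE 0.15, adjusted p = 0.373 from limma) for TFEB, a master regulator of lysosomal genes. TFEB had 171 to 192 normalized counts in SW480-45 and 124 to 162 in SW480-NC. Its groups did not overlap, as in 23.4% of all features.

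**Figure D5:**
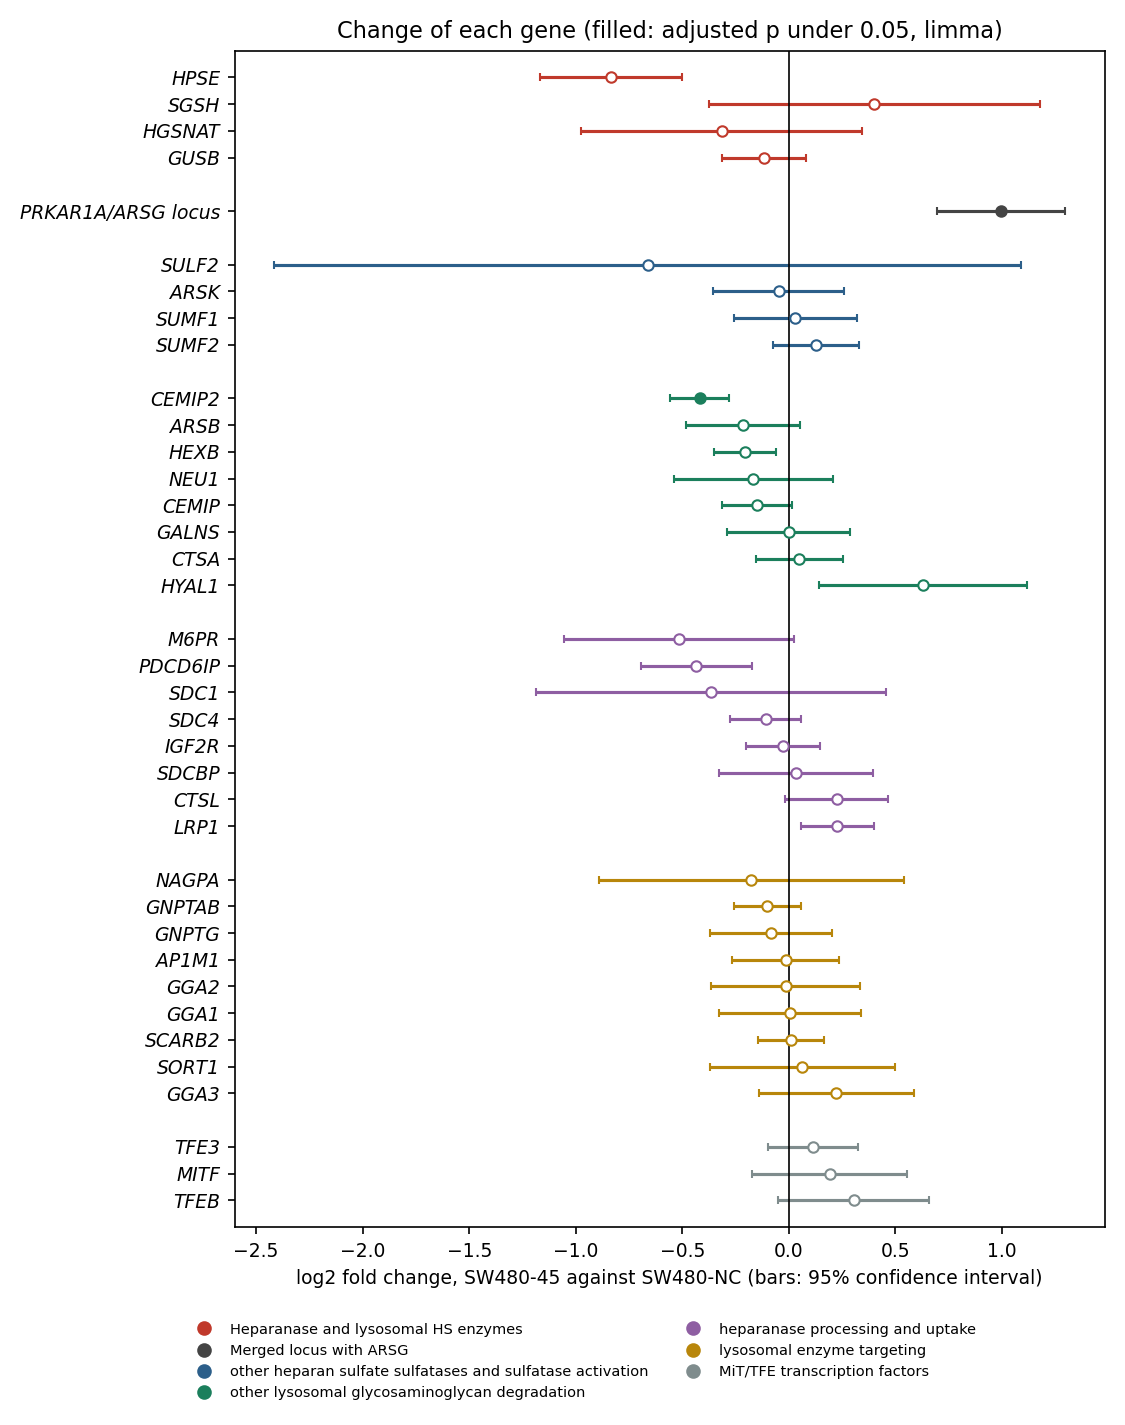
Log2 fold change of SW480-45 against SW480-NC (horizontal axis) with its 95% confidence interval from limma for 4 of the genes described, the merged locus that holds ARSG, and 32 genes of 5 pathway lists, in colours by list. Filled points have an adjusted p under 0.05, which only the merged locus at 1.00 and CEMIP2 at −0.42 reach; the interval of HPSE also lies wholly below 0.

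The genes whose profile over the 6 libraries was most like that of HPSE were ranked by Pearson's r of log2(normalized count + 1) over the 9704 Ensembl genes with a symbol whose mean reached 50 normalized counts. With 3 libraries per line, r mostly reflects the difference between the lines, and it says nothing of its size. The 5 most alike were BECN1, PAK2, TMEM209, HIPK2 and EGFR, with r of 0.997 to 0.992. BECN1, a core autophagy gene, had 1532, 1639 and 1582 normalized counts in SW480-45 and 1948, 2006 and 1862 in SW480-NC, and its log2 fold change was −0.29, against −0.83 for HPSE. EGFR, the epidermal growth factor receptor, had −0.27 (adjusted p = 0.127 from limma). The 5 most opposite were TP53INP1, EMC9, MEST, FUT3 and HNMT, with r of −0.995 to −0.989. HNMT, which inactivates histamine, rose from 227 ± 10.9 to 432 ± 54.99 normalized counts (SD, n = 3 each), a change of 0.92 on the log2 scale (SE 0.13, adjusted p = 0.0353 from limma). In limma it was the only 1 of these 10 genes with an adjusted p under 0.05 (0.802% of all features). In DESeq2 MEST (adjusted p = 0.00306) and FUT3 (adjusted p = 0.0112) passed as well (4.55% of the 16618 features with an adjusted p). The 10 genes were picked by r over the same libraries, so these p-values are no separate evidence of a difference. In all, 114 genes had r over 0.95 with HPSE and 94 had r under −0.95. For the other enzymes, which were not picked by r, the values with HPSE were 0.72 for GUSB, 0.51 for HGSNAT and −0.23 for SGSH over the same 6 libraries.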

How the data were processed

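RNA of 3 SW480-45 and 3 SW480-NC libraries was prepared with a kit for Illumina sequencing. The submitters' processing notes name bcl2fastq, HISAT2 and DESeq2 and the build GRCh38, without versions, and the study names Cuffdiff for its tests. The transcript assembler and the annotation are not given in the sources used here. The deposited table gives a signal for each feature, namely gene counts that the authors divided by 1 size factor per library. They cover 25927 Ensembl identifiers, 25595 of them matched to a symbol, and 33265 assembler loci.

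Dividing each library by its smallest value above 0 gave whole reads (within 0.01) for 100% of the values, 33221323 to 39802365 per library. Counting errors and floors cover counting only.

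Groups came from the sample titles. The main test was limma 3.58.1 (R 4.3.3) with an intensity trend on log2(normalized count + 1), over the 21703 features whose mean reached 10, with Benjamini-Hochberg adjustment over all of them. The count tests on the recovered reads, run as alternatives, called 136 features in edgeR 4.0.16 and 756 in DESeq2 1.42.0. The added 1 shrinks fold changes of low genes, but a single library near 0 can enlarge them. SULF2 had a log2 fold change of −0.66 in limma and −0.27 in edgeR. The steps were tested on simulated data. P-values weigh the difference between the lines against the spread between these libraries. A single line stood for each condition, so they do not extend to other guides or other lines.

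The genes and lists were chosen with earlier results of these data known. Named genes were all 9 enzymes, the called, most raised and most lowered gene of each list, the 5 most and 5 least HPSE-like genes, and genes or loci overlapping an enzyme. A further gene of the pathway was left out of the lists and is not reported here. GENCODE 29 gave coordinates and exon lengths. Same-numbered libraries did not deviate together. Figures were drawn with matplotlib 3.10.9.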

Additional observations from a re-analysis of the deposited data

How the results depend on the processing

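Among 16 alternatives, GUSB, SGSH and HPSE kept their direction, and HGSNAT reversed in 1, to 0.014 without SW480-45 replicate 1 (−0.57 to 0.014 with 1 library left out). HPSE passed the adjusted threshold in limma over all features with any value, with a minimum mean of 50 and over Ensembl features only, each with a log2 fold change of −0.83, and in DESeq2 with −0.83. In these 4 settings 1 of the enzymes was called instead of 0. The number of features called was 174, and it was 11 without an intensity trend, 756 in DESeq2 and 29 (without SW480-NC replicate 1) to 93 (without SW480-NC replicate 3) with 1 library left out. With the replicate number as a block it was 12, and HPSE kept −0.83 (adjusted p = 0.169 from limma). The numbers mark no shared batch in the labels, and same-numbered libraries correlated in their deviations with r of only −0.0202 to 0.00741, so they were not treated as pairs. The block also ended the calls of KRT20 (adjusted p = 0.0610 from limma), CEMIP2 and the merged locus with ARSG (adjusted p = 0.0732 from limma). Without an intensity trend none of the 3 passed (0.0859 for KRT20, 0.160 for CEMIP2 and 0.126 for the locus), and CEMIP2 also missed with quantile normalization (0.0507). The called enzymes of other glycosaminoglycans went from 1 to 0 in these settings and with any 1 library left out, and the genes of heparanase processing and uptake from 0 to 1 in DESeq2. The causes of these shifts were not tested. HPSE2 could not be tested at its depth, and IDS, IDUA, NAGLU and ARSG were not analysed here as single genes.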

Other observations

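Genes that share genomic sequence with an enzyme lacking a row of its own had values that overlapped between the lines. SLC26A1, a sulfate transporter encoded on the strand opposite IDUA, had 68.5, 38.8 and 39.6 normalized counts in SW480-45 and 24.1, 32.8 and 62.6 in SW480-NC, with a log2 fold change of 0.35 (SE 0.40, adjusted p = 0.695 from limma). WIPI1, an autophagy gene that overlaps the end of ARSG on the opposite strand, had 297, 271 and 227 in SW480-45 and 265, 252 and 305 in SW480-NC, with a log2 fold change of −0.05 (SE 0.14, 95% confidence interval −0.39 to 0.28). SLC16A6, a transporter gene inside ARSG on the opposite strand, had 50.6 to 61.2 and 46.4 to 79.5, with a log2 fold change of −0.11 (SE 0.24). The merged locus named with ARSG had about 2.00 times the level of SW480-NC in SW480-45, and WIPI1 and SLC16A6 overlapped between the lines. The 95% confidence intervals were −0.57 to 1.27 for SLC26A1 and −0.67 to 0.45 for SLC16A6.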
